A study of Mus musculus with 6 samples.

Results

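Central carbon metabolism was followed through 36 genes of glycolysis, the pentose phosphate pathway and the tricarboxylic acid (TCA) cycle, with the transporters for glucose and lactate and the transcription factor Hif1a. The members were the entries of the 6 count files whose gene symbol matched a fixed list of enzymes and transporters. All 36 symbols were present among 23282 entries, and 35 had a count in at least 1 library. The libraries came from regulatory T cells (Treg), a CD4 T cell lineage that holds immune responses in check; they were taken by cell sorter out of C57BL/6 spleen and not stimulated. There were 3 wild type libraries and 3 IPMK cKO libraries, whose cells lack inositol polyphosphate multikinase (IPMK), a kinase of inositol phosphates and phosphoinositides. Gene expression was compared between the genotypes. A 3′ tag method was used, in which each transcript is read near its end. How the deletion was made, the exons it removes, the age and sex of the mice and any pooling are not stated in the sources used here. Each library is described as a biological replicate, but not as a separate animal. The p-values therefore measure spread among samples that may not be separate animals.

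Glycolysis splits glucose into pyruvate in the cytosol. Pyruvate is reduced to lactate by lactate dehydrogenase or enters mitochondria through the pyruvate dehydrogenase complex to feed the TCA cycle. The pentose phosphate pathway branches off at glucose 6-phosphate: its oxidative arm makes NADPH, and its non-oxidative arm, run by transketolase and transaldolase, exchanges sugars with glycolysis. In T cells activation raises glucose uptake and glycolysis, while Treg are known to rely more on mitochondrial oxidation, and effector Treg, the activated subset, take up more glucose than resting Treg.

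Total counts were 7464546 to 8980395 per library. IPMK cKO replicate 1 stood apart: 41.3% of 7595 genes with a median of at least 10 CPM (counts scaled to the same library total, adjusted by TMM factors) differed more than 2-fold from the other libraries' median. That share was 7.33% to 18.3% in the other 5 libraries. Ipmk (chromosome 10, 71347763 to 71433327, mm10) had 129, 77 and 99 counts across wild type against 3, 21 and 0 across IPMK cKO. The 6 Treg markers summed to 2067 to 2911 CPM across wild type against 1897 to 2356 CPM across IPMK cKO. Their defining member Foxp3 had 86, 590 and 279 counts across wild type against 605, 551 and 811 across IPMK cKO, and wild type replicate 1 was the lowest. Cd8a and Ncr1 of CD8 T and NK cells had no count in any library. The 4 CD8 T and NK cell markers summed to 9.88 to 15.8 CPM across wild type against 2.11 to 8.62 CPM across IPMK cKO, without overlap. Cd8b1 alone overlapped, at 7.82 to 12.2 CPM across wild type against 2.11 to 8.62 CPM across IPMK cKO. Klrb1c had 66 counts in wild type replicate 1 and 0 or 1 in each other library. The part of these markers in the results was not tested. In bulk samples, fewer cells of a type and less RNA per cell cannot be told apart.

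None of the 35 tested members passed edgeR's quasi-likelihood test, which called 0 of 10475 genes (0%). The smallest adjusted p of a member was 0.9999. Ipmk, the targeted gene, was not called either (log2 fold change −3.51, SE 1.75, edgeR adjusted p = 0.9999). A missing call therefore does not show that a gene was unchanged. No member had an unadjusted p under 0.05, against 268 of all genes tested (2.56%). DESeq2 called 3 of 10412 genes (0.0288%), none a member, and its smallest adjusted p for a member was 0.999. Estimates of log2 fold change, IPMK cKO over wild type, were above 0 for 19 members and below 0 for 16, with a median of +0.05 against +0.03 over all genes tested. They ran from −1.20 for G6pdx to +0.82 for Hk1. Without IPMK cKO replicate 1, 15 were above 0 and 20 below, with a median of −0.10 against −0.01 over all genes, and 0 members were called, against 1 of 11138 genes (0.00898%).

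**Figure D1:**
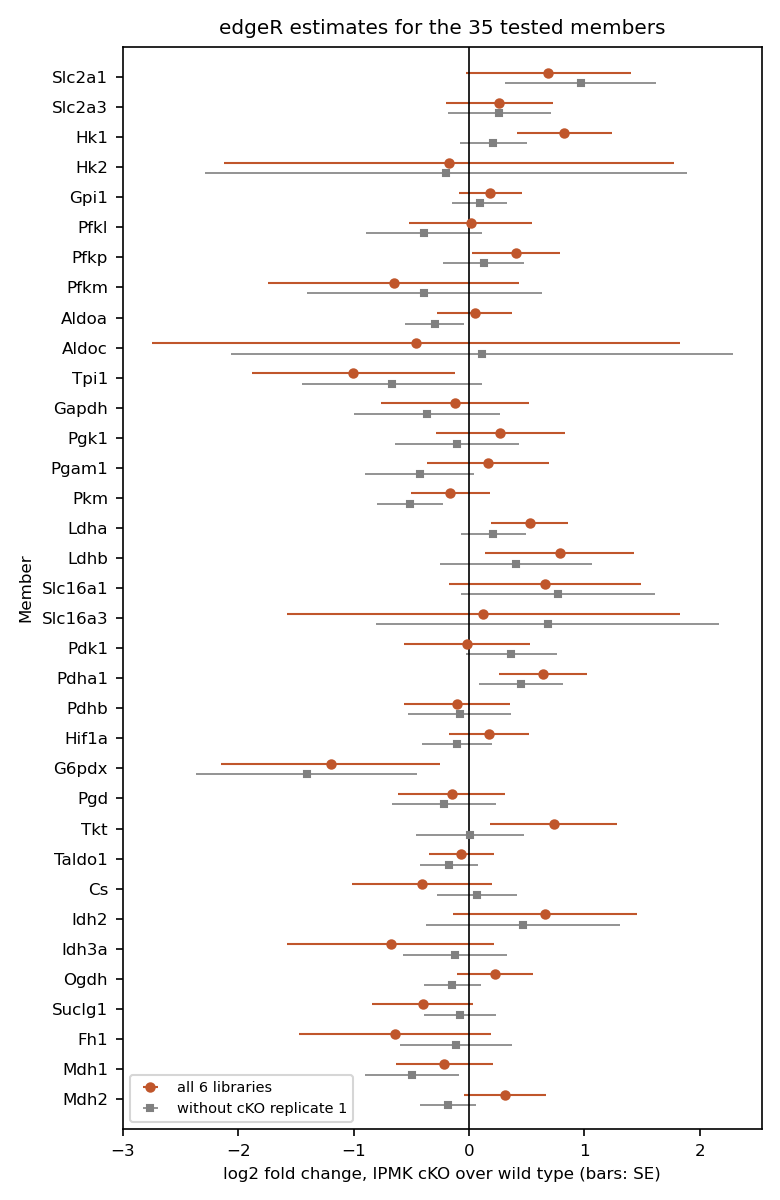
Log2 fold change of each tested member, IPMK cKO over wild type, with its SE as a bar, from all 6 libraries (circles) and without IPMK cKO replicate 1 (squares). G6pdx lay at −1.20 and −1.41, and Hk1 moved from +0.82 to +0.21 when that library was left out.

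In 3 members the libraries of the groups did not overlap, 1 higher and 2 lower in IPMK cKO. Over all genes tested this held for 10.4%, with 4.74% higher and 5.66% lower, so the members' count lay near the background. Without IPMK cKO replicate 1, 6 members did not overlap (Gpi1 higher, and Tpi1, Pgam1, G6pdx, Taldo1 and Ogdh lower), against 19.5% of all genes, 9.45% higher and 10% lower.

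G6pdx encodes glucose-6-phosphate dehydrogenase, the entry enzyme of the oxidative pentose phosphate arm (chromosome X, 74409483 to 74429194, minus strand, mm10). It had 145, 89 and 123 counts across wild type against 55, 47 and 45 across IPMK cKO. Its levels were 17.4, 12.2 and 12.8 CPM across wild type against 7.74, 6.14 and 4.57 CPM across IPMK cKO. No IPMK cKO library reached the lowest wild type library, and replicate 1, which stood apart for other genes, was the highest of the 3. The group means were 14.1 ± 2.89 and 6.15 ± 1.59 CPM (SD, n = 3 each), a ratio of 0.435. The estimated log2 fold change was −1.20 (SE 0.95), not called (edgeR adjusted p = 0.9999). It ranged from −1.45 to −1.02 over the 15 other settings of the analysis, without a call in any.

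Tpi1 encodes triosephosphate isomerase, which interconverts the triose phosphates made by aldolase (chromosome 6, 124810586 to 124814296, minus strand). Its levels were 13.2, 17.5 and 18.1 CPM across wild type against 3.80, 7.45 and 13.1 CPM across IPMK cKO. The highest IPMK cKO library, 129 counts, nearly reached the lowest wild type library, 110 counts in a smaller library. Its log2 fold change was −1.002 (SE 0.88), or −0.67 without IPMK cKO replicate 1. Gpi1 encodes glucose-6-phosphate isomerase, the second step of glycolysis (chromosome 7, 34201330 to 34230336, minus strand). It was the steadiest of these 3, at 145, 135 and 149 CPM across wild type against 181, 154 and 152 CPM across IPMK cKO, with an estimate of +0.19 (SE 0.27), or +0.09 without that library. The gap between the groups was small, and they overlapped when libraries were scaled by their totals alone, a scaling under which Pfkm, Tpi1 and G6pdx lay apart, lower in IPMK cKO.

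**Figure D2:**
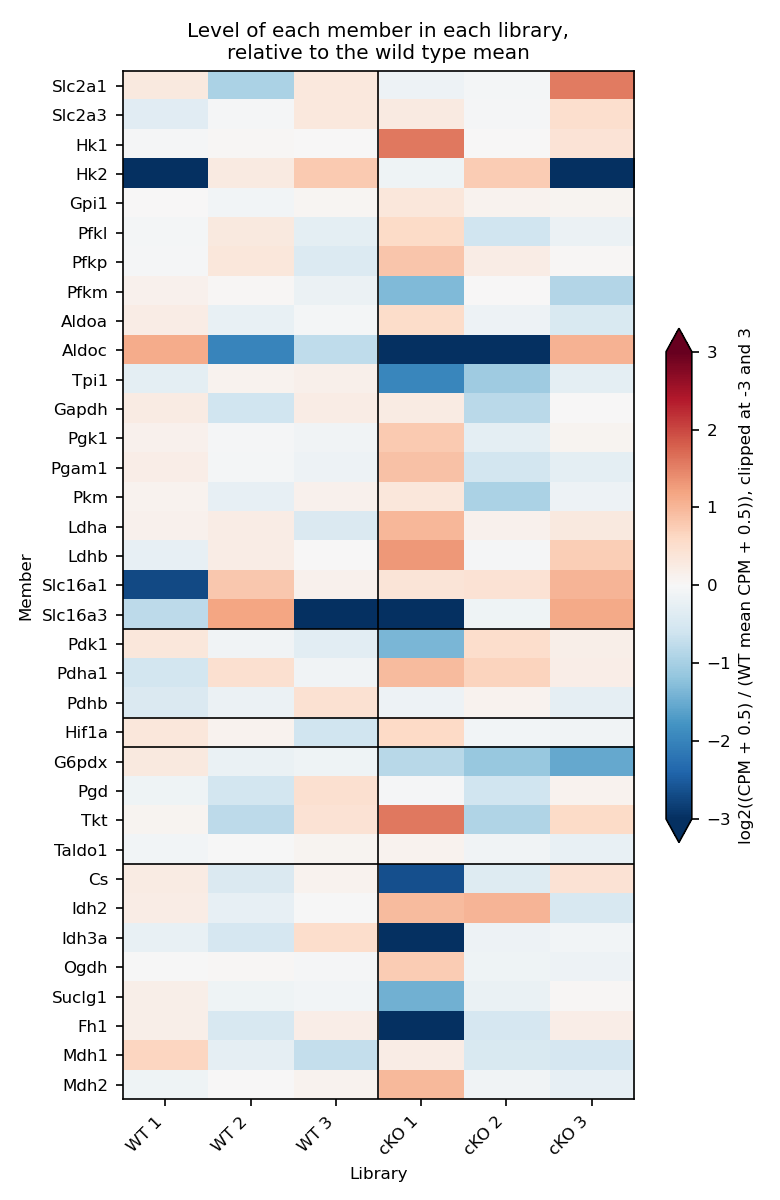
Level of each member with counts in each library as log2((CPM + 0.5) / (wild type mean CPM + 0.5)), red above and blue below the wild type mean, clipped at −3 and 3, with lines between pathways. G6pdx was below the wild type mean in all 3 IPMK cKO libraries, while Cs, Idh3a, Suclg1 and Fh1 stood out as low in IPMK cKO replicate 1.

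Glucose enters T cells through the transporters Slc2a1 (GLUT1) and Slc2a3 (GLUT3). Slc2a1 was 20.9, 8.47 and 21.2 CPM across wild type against 15.2, 16.1 and 50.3 CPM across IPMK cKO. The high value belonged to IPMK cKO replicate 3, and the other libraries of that group lay inside the wild type range. Its log2 fold change was +0.69 (SE 0.71), and −0.11 without IPMK cKO replicate 3. Slc2a3 was 24.5 to 39.1 CPM across wild type against 30.4 to 44.96 CPM across IPMK cKO, with an estimate of +0.27 (SE 0.46). Of the hexokinases, which trap glucose in the cell, Hk1 carried at least 84.8% of the counts in each library. Hk1 was 75.3, 78.7 and 77.7 CPM across wild type against 231, 77.3 and 102.3 CPM across IPMK cKO. The groups overlapped, since IPMK cKO replicate 2 lay among the wild type libraries. Its log2 fold change of +0.82 (SE 0.41) had the smallest unadjusted p of the members (0.0708), and was +0.21 (SE 0.29) without IPMK cKO replicate 1. Hk2, the inducible hexokinase, was absent from 1 library of each group (0, 70 and 134 counts against 51, 105 and 0), with an estimate of −0.17 (SE 1.95).

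Phosphofructokinase commits sugar to glycolysis and is built from the products of Pfkl (liver type), Pfkm (muscle type) and Pfkp (platelet type). Pfkp took the largest share of their counts in every library. Its share was 58.3%, 60.5% and 56.2% across wild type, in replicate order, against 67.7%, 68.9% and 65.0% across IPMK cKO. Every IPMK cKO library lay above every wild type library, with means of 58.4% ± 2.11 and 67.2% ± 2.01 (SD, n = 3 each), a difference of 8.83 percentage points. Leaving out any 1 library gave 7.78 to 9.94 points. Wilson 95% intervals of the closest libraries overlapped, 57.2% to 63.7% in wild type replicate 2 and 61.8% to 68.0% in IPMK cKO replicate 3, and cover counting error only. These shares rested on 729 to 1058 counts per library. Shares are given as a description without a test. An exact permutation test of 3 against 3 libraries cannot go below 0.1. Among the 7 isoform sets this was the only one with shares apart between the groups. For levels, 10.4% of all genes tested lay apart, and no such background was computed for shares.

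The level of Pfkp itself overlapped between the groups, at 55.6, 71.5 and 42.6 CPM across wild type against 101, 66.0 and 58.1 CPM across IPMK cKO (log2 fold change +0.41, SE 0.38, and +0.13 without IPMK cKO replicate 1). Pfkl took 29.8% to 31.8% in wild type and 20.2% to 29.77% in IPMK cKO, so the groups nearly touched. Pfkl had a fold change of +0.01 (SE 0.53), which was −0.39 without IPMK cKO replicate 1. Pfkm took 8.90% to 11.9% in wild type and 2.55% to 10.9% in IPMK cKO, with a log2 fold change of −0.65 (SE 1.09), or −0.39 without that library.

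In the other isoform sets the shares overlapped between the groups. Since the assay reads tags at the 3′ end of a transcript, counts do not scale with transcript length, and counts of 2 genes were set side by side. How tags were assigned to genes is not stated in the sources used here, so the shares describe counts and not transcript numbers. Hk1 held 84.8% to 100% of the hexokinase counts in wild type and 84.9% to 100% in IPMK cKO. Aldoa, the aldolase of most tissues, held 96.2% to 99.6% and 94.4% to 100% of the aldolase counts against Aldoc. Ldha, whose subunit favours making lactate, held 85.7% to 91.5% of the lactate dehydrogenase counts in wild type and 85.6% to 90.2% in IPMK cKO, the rest being Ldhb. Slc2a1 held 21.8% to 46.0% and 28.8% to 52.8% of the counts of both glucose transporters. Slc16a1 (MCT1) held 40.0% to 98.3% and 71.9% to 98.8% of the counts of the lactate transporters, against Slc16a3 (MCT4). The cytosolic malate dehydrogenase Mdh1 held 21.2% to 44.7% in wild type and 21.9% to 28.2% in IPMK cKO, against the mitochondrial Mdh2. Thus Hk1, Aldoa and, as counted, Ldha held most of their sets' counts in all 6 libraries, although the count of Ldhb is uncertain because its 3′ end has a near-identical copy, while the transporter sets were mixed and changed from library to library.

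**Figure D3:**
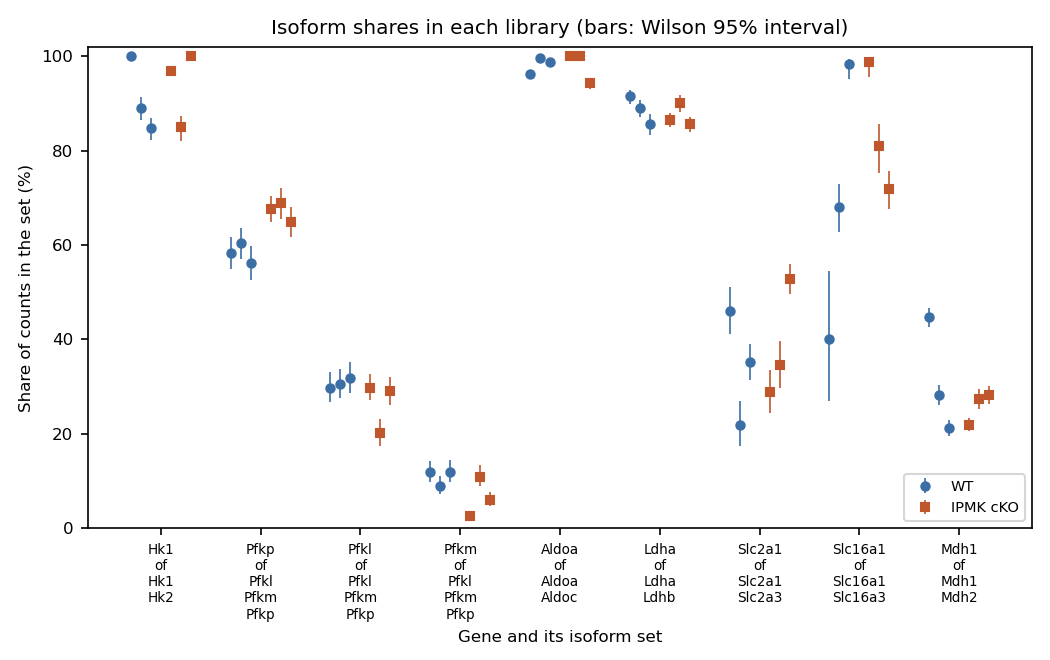
Share of the counts of an isoform set taken by 1 gene, in percent, for each wild type (circles) and IPMK cKO (squares) library, with Wilson 95% intervals for counting error. The Pfkp shares lay at 56.2% to 60.5% in wild type and 65.0% to 68.9% in IPMK cKO.

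Below phosphofructokinase, the groups overlapped for every member but Tpi1. Aldoa was 245, 180 and 202 CPM across wild type against 307, 188 and 153 CPM across IPMK cKO (+0.05, SE 0.32, and −0.30 without IPMK cKO replicate 1), and Aldoc had no count in IPMK cKO replicates 1 and 2 and 90 in replicate 3 (−0.46, SE 2.29, and +0.11 without replicate 1). Pkm, pyruvate kinase, the final ATP-making step of glycolysis, was the most abundant member on average. It was 295, 232 and 299 CPM across wild type against 351, 142 and 246 CPM across IPMK cKO, so the IPMK cKO libraries lay on both sides of wild type. Its estimate was −0.16 (SE 0.34), and −0.51 without IPMK cKO replicate 1. The splice forms of Pkm share their 3′ end and could not be told apart. Gapdh, Pgk1 and Pgam1, which carry triose phosphate to phosphoglycerate, had log2 fold changes of −0.12, +0.27 and +0.16, and of −0.36, −0.10 and −0.43 without IPMK cKO replicate 1, so Pgk1 and Pgam1 changed sign.

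Eno1, the main enolase gene, was listed at 0 in all 6 libraries. A count of 0 allows at most 0.304 to 0.422 CPM (3 counts, counting error only). This limit holds only if tags of Eno1 were counted under that name. The entries named Eno1b, of which the files hold 2, together had 759, 588 and 665 counts across wild type against 360, 496 and 677 across IPMK cKO. Scaled to TMM-adjusted library totals these were 91.3, 80.4 and 69.2 CPM against 50.7, 64.8 and 68.7 CPM. Every IPMK cKO sum was below every wild type sum under this scaling, the closest by a small margin. Taken singly, 1 entry overlapped between the groups and the other was lower in IPMK cKO. Over all genes tested, 10.4% did not overlap. Other scalings of these sums were not run. Eno1b was looked at after the values of Eno1 were seen. In the GENCODE M21 transcripts the last 300 bases of Eno1 had 1 other gene with a stretch of at least 75 bases at 97% identity or more. The same search found 77 such genes for Gapdh, 1 for Ldhb and 0 for the other 33 members, and a copy for 5.78% of 9674 genes. Gapdh was only 11.9 to 25.3 CPM over the 6 libraries, below Hk1 in each. Levels of Eno1, Gapdh and Ldhb are therefore uncertain, and how tags shared with copies were counted is not stated in the sources used here.

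Lactate is made by lactate dehydrogenase and leaves through monocarboxylate transporters. Ldha was 134, 141 and 90.0 CPM across wild type against 242, 133 and 150 CPM across IPMK cKO. IPMK cKO replicate 2 lay within the wild type range, and the log2 fold change was +0.53 (SE 0.34), or +0.21 (SE 0.28) without IPMK cKO replicate 1. Ldhb was 12.4 to 17.4 CPM across wild type against 14.5 to 37.6 CPM across IPMK cKO (+0.79, SE 0.65), its highest value being that same library, without which it was at +0.41. Slc16a1 had 18 counts in wild type replicate 1 and 159 to 346 in the other libraries (+0.66, SE 0.83). Slc16a3 had 27, 104 and 3 counts across wild type against 2, 41 and 135 across IPMK cKO (+0.12, SE 1.71). For Slc16a3 the spread within each group exceeded the difference between the group means, while the low count of Slc16a1 came from 1 wild type library. Without IPMK cKO replicate 1, Slc16a3 was at +0.68.

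Summed over the 20 glycolytic genes, levels were 1162, 1079 and 1096 CPM across wild type against 1710, 952 and 1155 CPM across IPMK cKO. These sums hold Eno1 at 0, leave out Eno1b and include the uncertain levels of Gapdh and Ldhb. The wild type libraries agreed closely, whereas IPMK cKO replicate 1 lay above them and replicate 2 below. The means were 1112 ± 44.1 and 1273 ± 392 CPM (SD, n = 3 each), a log2 ratio of +0.19. Recomputed from the remaining libraries without IPMK cKO replicate 1, the ratio was −0.08. Proliferation markers, 6 genes, summed to 150 to 214 CPM across wild type against 74.5 to 126 CPM across IPMK cKO, without overlap. Taken singly, each of the 6 overlapped between the groups. Estimates of those tested ran from −1.18 for Birc5 to +0.17 for Ccna2. Cdk1, not tested, had 170 counts in wild type replicate 1 and 39 or fewer elsewhere. Their part in the glycolytic levels was not tested.

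At the entry to mitochondria, Pdha1, a catalytic subunit of pyruvate dehydrogenase, was 43.9, 89.8 and 59.4 CPM across wild type against 125, 103 and 73.7 CPM across IPMK cKO. IPMK cKO replicate 3 lay inside the wild type range, and the log2 fold change was +0.64 (SE 0.38). It stayed above 0 in all 15 other settings, between +0.43 and +0.94, without a call. Pdhb, the partner subunit, was at −0.10. Pdk1, the kinase that switches the complex off, was 49.6, 35.9 and 31.1 CPM across wild type against 14.6, 56.6 and 44.2 CPM across IPMK cKO. The low value was again IPMK cKO replicate 1, and the estimate went from −0.01 to +0.37 without it. Hif1a, which encodes the oxygen-regulated subunit that drives many glycolytic genes, was 175, 150 and 92.0 CPM across wild type against 211, 132 and 129 CPM across IPMK cKO (+0.18, SE 0.35), and its estimate turned to −0.10 without IPMK cKO replicate 1.

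In the pentose phosphate pathway, Pgd, the second NADPH-making enzyme of the oxidative arm, did not share the pattern of G6pdx. It was 39.8, 29.5 and 61.3 CPM across wild type against 42.4, 28.5 and 46.8 CPM across IPMK cKO. In the non-oxidative arm, transketolase (Tkt) was 81.6, 44.3 and 104 CPM across wild type against 228, 40.6 and 114 CPM across IPMK cKO. Both extremes were IPMK cKO libraries. The log2 fold change of Tkt was +0.74 (SE 0.55), and +0.01 without IPMK cKO replicate 1. Transaldolase (Taldo1) was one of the steadiest members, at 126, 131 and 139 CPM across wild type against 143, 123 and 112 CPM across IPMK cKO (−0.07, SE 0.28, and −0.17 without that library). The sum of the 4 genes was 266 ± 49.9 CPM across wild type against 299 ± 113 CPM across IPMK cKO (SD, n = 3 each), with overlap. The log2 ratio of these sums was +0.17, and −0.16 without IPMK cKO replicate 1, −0.08 with library totals alone and −0.21 as the mean of log2 levels.

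**Figure D4:**
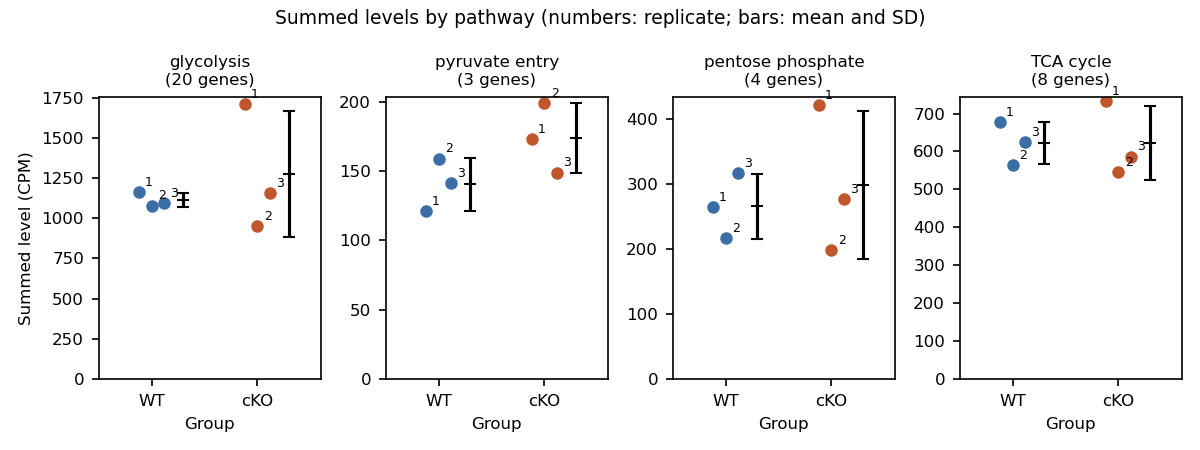
Summed CPM of the members of each pathway in each library (points, numbered by replicate), with the mean and SD of each group as bars. In glycolysis and the pentose phosphate pathway IPMK cKO replicate 1 was the highest of the 6 libraries and replicate 2 the lowest.

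The 8 TCA cycle members summed to 677, 565 and 625 CPM across wild type against 732, 546 and 586 CPM across IPMK cKO, with means of 622 ± 56.1 and 622 ± 97.9 CPM (SD, n = 3 each). Equal sums hid opposite values in IPMK cKO replicate 1. There, citrate synthase (Cs), which starts the cycle, was 12.7 CPM against 59.7 to 109 CPM in the other 5 libraries. Idh3a, the catalytic subunit of NAD-dependent isocitrate dehydrogenase, had 8 counts against 195 to 529. Fumarase (Fh1) had 14 counts against 163 to 354, and Suclg1 of succinyl-CoA ligase had 175 against 450 to 684. In the same library Ogdh, the oxoglutarate dehydrogenase subunit, was 230 CPM against 123 to 139 CPM elsewhere, and Mdh2 was 344 CPM against 148 to 189 CPM. In IPMK cKO replicates 2 and 3, Cs, Idh3a, Fh1 and Suclg1 lay within or close to the wild type range.

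With all libraries, Cs, Idh3a, Fh1 and Suclg1 had log2 fold changes of −0.41 (SE 0.60), −0.68 (SE 0.90), −0.64 (SE 0.83) and −0.40 (SE 0.44). Without IPMK cKO replicate 1 these were +0.07, −0.12, −0.11 and −0.08. Mdh2 went from +0.32 (SE 0.36) to −0.18 (SE 0.24), and Ogdh from +0.23 to −0.14. Mdh1 was 129, 69.4 and 50.8 CPM across wild type against 96.7, 60.8 and 58.1 CPM across IPMK cKO (−0.21, SE 0.42, and −0.49 without IPMK cKO replicate 1), with its high value in wild type replicate 1. Idh2, the NADP-dependent mitochondrial isocitrate dehydrogenase, was 9.16 to 12.8 CPM across wild type against 21.5, 22.7 and 7.71 CPM across IPMK cKO (+0.66, SE 0.80).

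**Figure D5:**
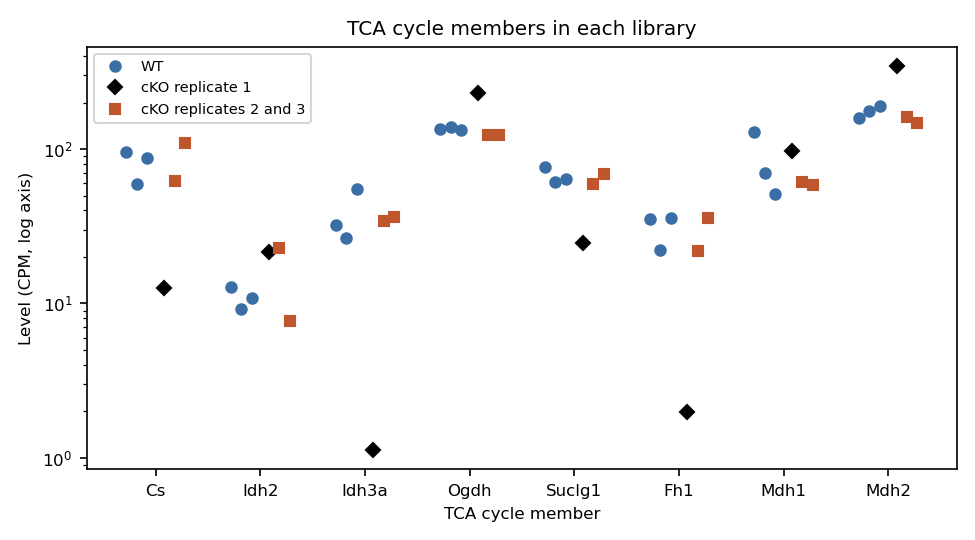
Level of each TCA cycle member in CPM on a log axis, in wild type libraries (circles), IPMK cKO replicate 1 (diamonds) and IPMK cKO replicates 2 and 3 (squares). In IPMK cKO replicate 1, Cs, Idh3a, Suclg1 and Fh1 lay far below the other 5 libraries and Ogdh and Mdh2 above them.

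Of 30 members with a median of at least 10 CPM, 11 (36.7%) differed more than 2-fold from the other libraries' median in IPMK cKO replicate 1, near the 41.3% of all genes. Low there were Tpi1, Pdk1, Cs, Idh3a, Suclg1 and Fh1, and high were Hk1, Pgam1, Ldhb, Tkt and Mdh2. In the other libraries 0 to 4 members lay so far. The SD over libraries relative to the mean had a median over the 30 members of 23.0% in wild type and 41.5% in IPMK cKO, against 26.6% and 43.5% over 7595 genes.

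Upstream sequence is shown for 4 members: Gpi1, with groups apart, Pfkp, whose share differed, and Cs and Fh1, both low in 1 library. Each is the 250 bases before the start site in RefSeq's table for GRCm38.p6, the assembly also called mm10, 5′ to 3′ on the gene's strand. Capitals mark the core of the binding motif of hypoxia-inducible factor, ACGTG or GCGTG on either strand, where matches could overlap. The windows are chr7:34230337-34230586 (minus strand) for Gpi1, chr13:6648772-6649021 (minus strand) for Pfkp, chr10:128337477-128337726 (plus strand) for Cs and chr1:175625636-175625885 (minus strand) for Fh1.
Gpi1: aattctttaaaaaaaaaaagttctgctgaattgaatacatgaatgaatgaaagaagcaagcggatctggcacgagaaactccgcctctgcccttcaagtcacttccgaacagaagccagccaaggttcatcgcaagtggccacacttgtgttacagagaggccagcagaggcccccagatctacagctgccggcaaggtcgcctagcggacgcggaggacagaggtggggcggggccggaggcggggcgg
Pfkp: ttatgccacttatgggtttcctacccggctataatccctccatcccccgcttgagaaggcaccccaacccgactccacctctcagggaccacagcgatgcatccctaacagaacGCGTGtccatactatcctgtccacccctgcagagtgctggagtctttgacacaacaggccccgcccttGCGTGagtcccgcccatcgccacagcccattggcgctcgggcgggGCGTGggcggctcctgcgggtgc
Cs: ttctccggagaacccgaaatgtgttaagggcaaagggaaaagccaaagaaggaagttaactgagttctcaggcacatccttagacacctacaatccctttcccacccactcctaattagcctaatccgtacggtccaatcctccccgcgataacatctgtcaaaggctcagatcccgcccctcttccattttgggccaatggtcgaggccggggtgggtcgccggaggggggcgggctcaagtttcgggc
Fh1: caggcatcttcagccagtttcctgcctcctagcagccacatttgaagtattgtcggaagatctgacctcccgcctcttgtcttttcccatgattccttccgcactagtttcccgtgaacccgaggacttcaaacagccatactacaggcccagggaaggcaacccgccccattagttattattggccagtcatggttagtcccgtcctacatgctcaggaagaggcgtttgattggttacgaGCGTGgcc
Pfkp had 3 matches, Fh1 had 1, and Gpi1 and Cs had 0. The table held 34 of the 36 members, and 31 of them (91.2%) had a match in at least 1 window, against 62.7% of 8000 tested genes and 41.5% of 27025 genes. By window the shares were 82.7% of 52 for members and 38.6% of 32851 for all. A gene with more windows has more chances of a match, and windows of 1 gene can overlap each other or lie in exons. The share by window was not computed for tested genes. Ldha had the most matches in 1 window, 5. The median GC content was 60.0% for the windows of members and of tested genes, and 52.4% for all windows. A match is a description of letters and not of a bound site. G6pdx and Tpi1, both lower in every IPMK cKO library, had 1 match and 0. Of the 250 bases of their windows, 250 lay in annotated exons for G6pdx and 138 for Tpi1.

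Beyond the members, 86 further genes of these pathways and of hypoxia signalling were read from the same fit, of which 65 could be tested. None passed (edgeR adjusted p = 0.9999 for the smallest), with 29 estimates above 0 and 36 below and a median of −0.14. Without IPMK cKO replicate 1, 39 of 68 tested were above 0 and 29 below, with a median of +0.04, so the balance turned with that library. With all libraries, the groups did not overlap in 3 of the 65, against the background of 10.4%. Dlat, the acetyl-transferring core of pyruvate dehydrogenase, was 19.9, 30.3 and 18.6 CPM across wild type against 8.44, 10.4 and 13.5 CPM across IPMK cKO (log2 fold change −1.09, SE 0.69). Idh3g, a regulatory subunit of the enzyme that holds Idh3a, was 42.8, 47.4 and 32.1 CPM across wild type against 86.1, 61.9 and 52.2 CPM across IPMK cKO (+0.71, SE 0.39). Sucla2, a subunit of succinyl-CoA ligase named here after its values were seen, was 24.05 to 41.0 CPM across wild type against 17.7 to 20.25 CPM across IPMK cKO (−0.65, SE 0.55).

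By list, the tested genes with estimates above and below 0 were 5 and 6 for glycolysis and its control, 4 and 6 for pyruvate entry, 5 and 3 for the pentose phosphate pathway and 7 and 14 for the TCA cycle. In the TCA list, Idh3b, another subunit of the enzyme that holds Idh3a, had an estimate of −0.84 (SE 0.48), or −0.52 without IPMK cKO replicate 1. Sdha, the catalytic subunit of succinate dehydrogenase, was the most abundant gene of that list, with 140 ± 22.2 CPM across wild type against 183 ± 31.6 CPM across IPMK cKO (SD, n = 3 each). Glud1, glutamate dehydrogenase, was at −0.58 (SE 0.44), with its low value in IPMK cKO replicate 1, and −0.22 without it. Pgls, the lactonase between G6pdx and Pgd, was at +0.80 (SE 0.51), and +0.09 without IPMK cKO replicate 1. Rpe, ribulose phosphate epimerase, was at −1.003 (SE 0.80), with 16 counts in IPMK cKO replicate 1, and −0.50 without that library. The enzyme Pfkfb3, which makes the activator of phosphofructokinase, was at −0.38 (SE 0.60), and the mitochondrial glycerol phosphate dehydrogenase Gpd2 at +0.58 (SE 0.54). Gpd2 was highest in IPMK cKO replicate 1 and its estimate was +0.01 without that library.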

How the data were processed

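Splenic Treg RNA was extracted with Trizol and made into libraries with a Lexogen QuantSeq 3′ kit, per the labels' protocols. The authors deposited 1 file of raw counts per gene symbol for each library, in whole numbers. Bowtie2, edgeR, mm10 and hg19 are named, per the submitters' processing notes, with neither role nor version. Whether counting used strand is not stated in the sources used here.

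Counts of 23282 entries were used as deposited, 14404 with a count. Repeated symbols (35) were kept apart. After edgeR's filter (minimum count 10), 10475 genes were tested with its quasi-likelihood test and TMM factors (edgeR 4.0.16, R 4.3.3, Benjamini-Hochberg threshold 0.05, biological coefficient of variation 0.809). The model held genotype alone. Levels (CPM) are counts scaled by TMM-adjusted library totals. Sums and shares were described without a test. DESeq2 1.42.0 and limma 3.58.1 were alternatives, with other scalings and filters, a replicate block and each library left out. Ribosomal Rn45s took 16.7% to 32.1% of counts. The edgeR script was tested on simulated data with less spread than these libraries, which does not measure its power here. Copies of 3′ ends were searched with blastn 2.17.0.

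The members and lists were chosen with earlier results of these data known. Full statistics were given for the 10 tested members with the smallest p and the tested members of 7 isoform sets, 20 genes in all. Of the other pathway genes, up to 3 a list with the smallest p and the 2 with the highest mean could be named. The targeted gene Ipmk was the check of the labels. Some genes of the lists are not reported here.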

Additional observations from a re-analysis of the deposited data

How the results depend on the processing

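No member was called by edgeR, DESeq2 or limma-voom under any of the settings run. The unadjusted p of edgeR's quasi-likelihood test was 0.032 for Hk1 with no filter on low counts. Without IPMK cKO replicate 2 it was 0.0223 for Hk1 (log2 fold change +1.07) and 0.0339 for Tkt (+1.12). Adjusted p in these fits was 0.838 for the first and 0.776 for the others. Over all genes edgeR called 0, DESeq2 3, and leaving out 1 library gave 0 to 1 (1 without IPMK cKO replicate 1). The replicate numbers were not taken to pair the samples: deviations of same-numbered libraries correlated at 0.036, 0.08 and 0.031, although each library correlated best with its own number. With a replicate block 0 genes were called, and the estimates (log2) were +0.44 for Hk2, −0.047 for Pfkl, −0.001 for Aldoa and −0.63 for Slc16a3, each of the opposite sign. Of 20 members followed through 15 settings, 12 kept their sign in each. Pfkl and Aldoa changed sign with limma-voom (−0.051 and −0.023), upper quartile factors (−0.064 and −0.021) and library totals alone (−0.20 and −0.21), a scaling that moved the median of all genes from +0.03 to −0.17 and left 13 members above 0 and 22 below. Leaving out 1 library gave −0.11 to +0.97 for Slc2a1, −1.17 to +0.54 for Hk2, −0.39 to +0.21 for Pfkl, −0.30 to +0.24 for Aldoa, −8.07 to +1.03 for Aldoc, −1.06 to +1.84 for Slc16a3, −0.49 to +0.26 for Mdh1 and −0.18 to +0.53 for Mdh2. Members whose groups did not overlap numbered 3 to 8 with 1 library left out, when 16.6% to 25.0% of the genes tested did not overlap either. The count was 8 without wild type replicate 2, IPMK cKO replicate 2 or IPMK cKO replicate 3, 6 without IPMK cKO replicate 1 and 5 without wild type replicate 3. Gpi1, higher in IPMK cKO, and Tpi1 and G6pdx, lower, were among them each time. Groups that lie apart with all libraries stay apart when 1 is left out, unless the scaling changes them. The log2 ratio of the TCA sums, 0.00 with all counts scaled, was −0.22 with library totals alone and −0.43 as the mean of log2 levels, where the low genes of IPMK cKO replicate 1 weigh more. With members that have no near-identical 3′ copy, a setting chosen after seeing the data, 0 were called. G6pdx, Hk2, Pfkm, Aldoc and Slc16a3 had under 150 counts in every library, which limits their precision. The cause of these changes was not tested.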

Other observations

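Among genes that control hypoxia-inducible factor, 3 estimates were above 0 and 4 below, with none called by edgeR. Hif1an, which hydroxylates the factor, was 39.2, 32.2 and 38.7 CPM across wild type against 118.5, 45.7 and 33.9 CPM across IPMK cKO, with its high value in IPMK cKO replicate 1 (log2 fold change +0.84, SE 0.50, and +0.11 without that library). The prolyl hydroxylases Egln1 and Egln2, which mark the factor for degradation, had estimates of −0.74 (SE 0.46) and +0.53 (SE 0.40). Of 8 tested targets of the factor outside glycolysis, 5 were above 0 and 3 below. Ddit4, an inhibitor of mTORC1 signalling, was the most abundant, at 296 ± 96.0 CPM across wild type against 378 ± 158 CPM across IPMK cKO (SD, n = 3 each), and Bnip3l, a mitophagy receptor, was at −0.32 (SE 0.39), and −0.05 without IPMK cKO replicate 1, where it was lowest.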
